A study of Mus musculus with 33 samples.

Results

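The Hoxb cluster of the mouse was described by every ChIP-seq peak that overlapped a window on chromosome 11 from 96050000 to 96235000 of build mm9, a stretch of 185 kb that holds the 10 Hoxb genes from Hoxb13 to Hoxb1. Over 23 peak lists, 103 peaks of 493022 met this rule. Of these, 78 were MLL3 peaks and 25 came from Wdr5, Menin and MLL1, while ING1, LSD1 and Sin3A had none. Over all 23 lists, MLL3 gave 218204 of the 493022 peaks. The cells were C2C12, a line of mouse muscle precursors whose cells fuse into myotubes in low serum. Myotubes had been in 2% horse serum for 4 days (96 h), and myoblasts grew in 10% FBS. ChIP-seq sequences the DNA that an antibody recovers with its protein, and a peak is a stretch of the genome where such DNA piles up.

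Myotubes gave pooled lists for ING1 (3 replicates) and Sin3A (2 replicates) and a single list for LSD1. Growing myoblasts gave pooled lists for ING1 (2 replicates), MLL1 (2), Menin (2) and Wdr5 (3) and single lists for LSD1 and MLL3. ING1 in both states was recovered with anti-FLAG from a puromycin-selected stable line that expresses Flag-tagged ING1 ectopically, so its lists report the tagged protein. All other factors were mapped in C2C12 cells with antibodies against the proteins themselves, and all chromatin was sonicated. MLL1 samples have a title and an antibody that name MLL, which were followed over a source label that names Menin. For Sin3A the design text of the series speaks of myoblasts, and the sample labels, which say myotubes, were followed. The labels do not state that replicates are separate cultures, so the spread between replicate lists could be technical only. Inputs and RNA-seq were not analysed here, so neither the state of the cells nor transcription of the Hoxb genes could be checked.

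Hox genes encode homeodomain transcription factors that give cells positional identity along the body axis, and in mammals they sit in 4 clusters, Hoxa to Hoxd. Genes of a cluster are ordered along the chromosome in the order in which they are used along the axis, with Hoxb1 at the anterior and Hoxb13 at the posterior end. MLL1, with its partner Menin, is the mammalian trithorax protein known for keeping Hox genes active, and Polycomb complexes keep them silent. Wdr5 is a core subunit shared by the MLL methyltransferases, which methylate histone H3 at lysine 4 (H3K4). MLL3 is best known for H3K4 mono-methylation at enhancers. ING1 binds trimethylated H3K4 as part of Sin3 deacetylase complexes, whose scaffold is Sin3A, and LSD1 removes methyl groups from H3K4.

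In RefSeq's mouse gene table (GRCm38.p6, used for gene order only), 19 genes run from Hoxb13 to Hoxb1. They are the 10 Hoxb genes, 6 long noncoding RNAs, 1 pseudogene and the microRNA genes Mir196a-1 and Mir10a. Mir196a-1 is followed by Hoxb9, Hoxb8, Hoxb7, Hoxb6 and Hoxb5, and Mir10a lies between Hoxb5 and Hoxb4. A gene annotation of build mm9 was not used here, so peaks are placed by coordinate and by distance from the Hoxb13 end of the window, and not assigned to single genes.

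Upstream sequences of the 3 members matched in RefSeq's promoter table are shown because MLL1 carries a domain that binds unmethylated CpG, the base pair step set in capitals. Each is the 250 bases before the transcription start, 5′ to 3′, plus strand of GRCm38.p6.
Hoxb8 chr11:96281655-96281904: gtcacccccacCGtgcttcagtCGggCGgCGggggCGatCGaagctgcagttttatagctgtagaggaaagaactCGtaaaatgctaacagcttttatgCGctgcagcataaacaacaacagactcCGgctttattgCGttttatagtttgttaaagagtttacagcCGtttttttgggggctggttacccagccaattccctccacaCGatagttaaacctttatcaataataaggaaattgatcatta
Hoxb4 chr11:96318017-96318266: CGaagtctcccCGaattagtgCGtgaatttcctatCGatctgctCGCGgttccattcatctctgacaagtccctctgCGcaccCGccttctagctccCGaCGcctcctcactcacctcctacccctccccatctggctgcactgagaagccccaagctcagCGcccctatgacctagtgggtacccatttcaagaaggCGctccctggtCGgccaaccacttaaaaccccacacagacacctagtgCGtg
Hoxb1 chr11:96365508-96365757: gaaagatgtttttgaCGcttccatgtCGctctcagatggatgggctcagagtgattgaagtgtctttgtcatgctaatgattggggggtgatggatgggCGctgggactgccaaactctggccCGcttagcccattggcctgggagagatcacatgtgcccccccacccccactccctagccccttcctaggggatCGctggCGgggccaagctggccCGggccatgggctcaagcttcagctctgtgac
The motif searched was CG, which reads the same on both strands. Hoxb4 held 14 CpG steps, Hoxb8 12 and Hoxb1 7, against a median of 6 over 32851 promoter stretches of the same length. At least as many were found in 29.4% of all such stretches for Hoxb4, 33.5% for Hoxb8 and 46.3% for Hoxb1. These sequences are in another build than the peaks, and whether a peak lies on them was not tested.

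MLL3 covered the Hoxb cluster far more than any other factor. Its 78 peaks covered 71357 bp, or 38.6% of the window. Wdr5 covered 8765 bp (4.74%) with 14 pooled peaks, Menin 5120 bp (2.77%) with 6 and MLL1 893 bp (0.483%) with 2. MLL3 has the longest list of the series, with 218204 peaks against 70050 for Menin and 59248 for Wdr5, so each value was set beside the same list over the rest of the genome. For that, chromosomes 1 to 19 and X were cut into 13887 windows of the length of the Hoxb window. Of these, 0.605% were covered by MLL3 at least as much as Hoxb, and the mean window had 6.60%. Equal or higher coverage was found in 8.64% of windows for Wdr5, 17.0% for MLL1 and 28.3% for Menin. Hoxb was thus near the top of the MLL3 list, while its Menin coverage was close to the mean window (2.69%). Its Wdr5 and MLL1 coverage lay above their mean windows, of 1.79% and 0.249%. The median window had a Menin coverage of 0.376%, and 41.9% of windows had no Menin peak.

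**Figure D1:**
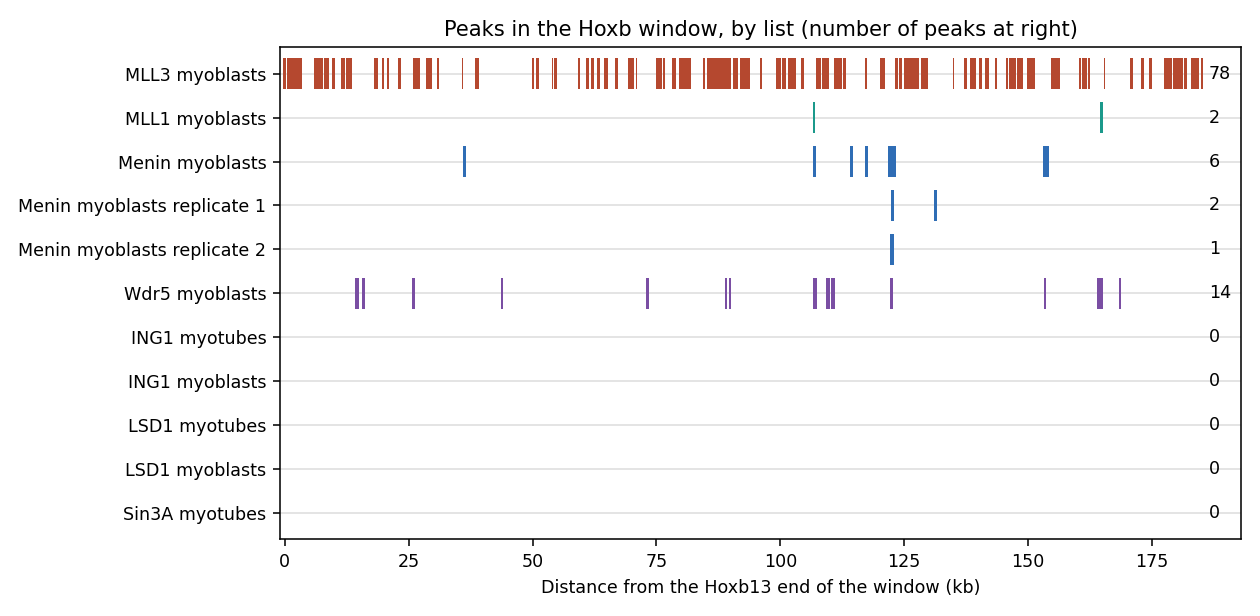
Peaks in the Hoxb window. The horizontal axis is the distance in kb from the Hoxb13 end, each row is a list, bars are peaks drawn to scale, and the number of peaks stands at the right. The row of MLL3 holds 78 peaks along the whole window, and the rows of ING1, LSD1 and Sin3A hold 0.

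MLL3 coverage was uneven between chromosomes. Chromosome 15 held 34 of the 84 windows at or above the Hoxb value, chromosome 8 held 19 and chromosome 11 held 12. On chromosome 11 itself 12 of 642 windows (1.87%) reached it, and the mean window of that chromosome had 14.5%. The part of this chromosome-wide level in the Hoxb value was not tested. One of the tiled windows lay almost wholly on Hoxb, sharing 179391 bp with it, and had 37.5%.

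**Figure D2:**
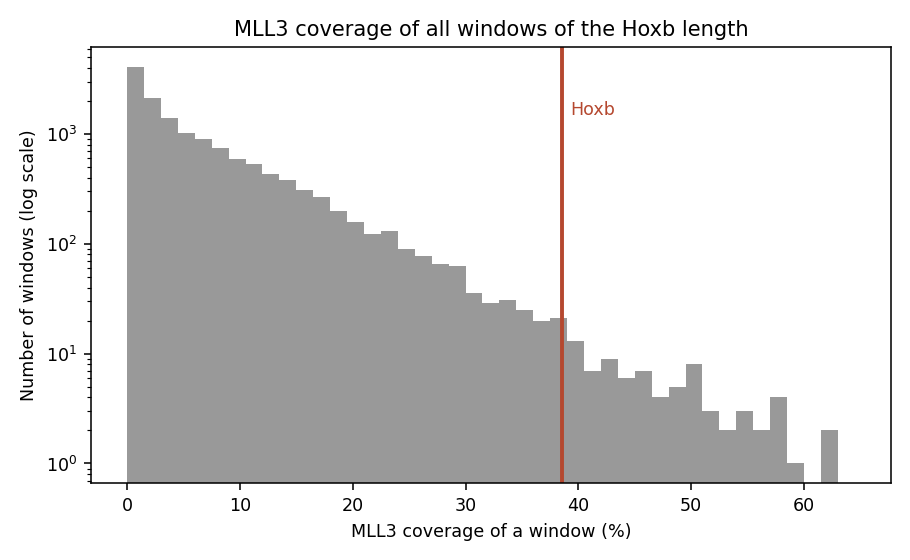
Number of windows of the Hoxb length (vertical, log scale) by the percentage of the window that MLL3 peaks cover (horizontal). The red line marks Hoxb at 38.6%, which 0.605% of the 13887 windows reached.

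The MLL3 peaks formed a chain of separate peaks. Their widths ran from 238 to 4669 bp with a median of 707.5 bp, against a median of 633 bp over the whole MLL3 list. Peaks wider than 1000 bp numbered 25 of 78 (32.1%), against 18.8% of all MLL3 peaks. The median gap between neighbouring peaks was 807 bp, and 2 of 77 gaps were longer than 5000 bp. The longest gap, 10611 bp, ran from 96089201 to 96099811, about 39.2 kb from the Hoxb13 end. The next, 5118 bp from 96215516 to 96220633, lay toward the Hoxb1 end. The widest MLL3 peak, of 4669 bp, spanned 96135291 to 96139959 and contained a whole Wdr5 peak and 328 bp of a second. The next were 2185 bp from 96175818 to 96178002 and 2103 bp from 96229247 to 96231349, and neither met another factor.

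Along the cluster, MLL3 coverage was measured in 10 steps of 18.5 kb each. From the Hoxb13 end, the first 4 steps were covered by 48.7%, 25.0%, 15.0% and 28.1%. The step from 74.0 to 92.5 kb had the highest coverage of the 10, 62.0%. The other 5, toward Hoxb1, had 45.01%, 49.0%, 36.0%, 34.8% and 42.1%. The step with 15.0% holds the longest gap, and each step met between 5 and 10 MLL3 peaks.

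MLL3 coverage did not end at the window. The neighbouring stretch of the same length beyond Hoxb1 was covered by 27.5%, with 57 peaks, and the one before Hoxb13 by 17.8%, with 35 peaks. Menin went the other way before Hoxb13, with 8.56% there against 2.77% in Hoxb. Wdr5 had 6.73% before Hoxb13 and 3.83% beyond Hoxb1. ING1 had 3 peaks in myotubes and 2 in myoblasts before Hoxb13, LSD1 had 4 in myotubes and 1 in myoblasts, and Sin3A had 5. Beyond Hoxb1, ING1 and LSD1 again had 0 peaks and Sin3A had 2.

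**Figure D3:**
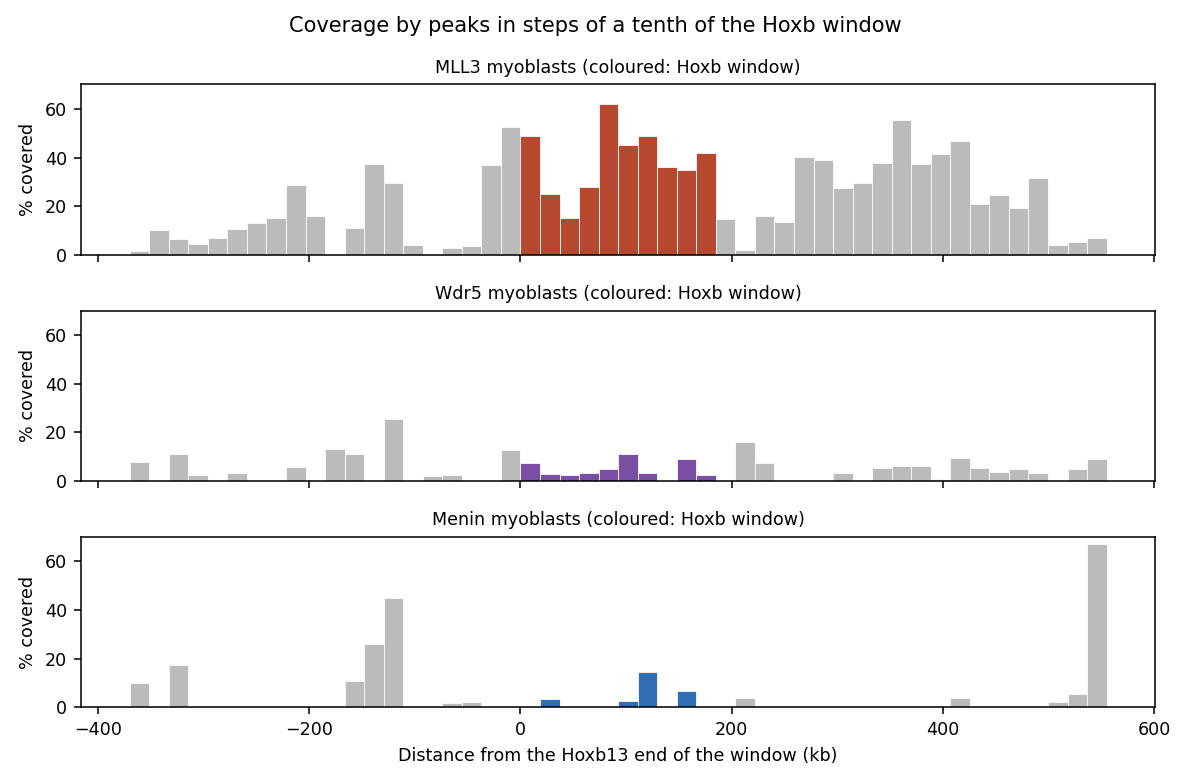
Percentage of each 18.5 kb step covered by peaks of MLL3, Wdr5 and Menin in myoblasts (vertical), by distance in kb from the Hoxb13 end (horizontal). Coloured bars are the Hoxb window, where MLL3 steps run from 15.0% to 62.0%, and grey bars are its neighbours on chromosome 11.

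None of the MLL3 peaks met ING1, LSD1, Sin3A or MLL1. ING1, LSD1 and Sin3A had 0 peaks in the window, so their counts of 0 followed from their empty lists. MLL1 had 2 peaks there, and 0 of 78 MLL3 peaks met them (exact 95% binomial interval 0 to 4.62%, counting error only). Over the whole MLL3 list overlaps with these factors, by at least 1 bp, were also rare. They reached 0.829% for ING1 in myotubes, 0.692% for ING1 in myoblasts, 1.69% for LSD1 in myotubes, 0.365% for LSD1 in myoblasts, 1.33% for Sin3A and 0.701% for MLL1. For MLL1, an absence among 78 peaks is therefore near the level of the list. MLL3 peaks met Menin in 3 of 78 cases (3.85%, 9.02% over the list) and Wdr5 in 5 (6.41%, 6.12% over the list).

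Outside the MLL3 list, binding was sparse and came in 17 separate places. The 22 pooled peaks of Wdr5, Menin and MLL1 merged into these places, of which 13 held a single factor, 3 held a pair and 1 held all 3. MLL3 peaks touched 9 of the 17 and covered 21.0% of their 12476 bp, with 38.6% for the window as a whole. At no base were more than 3 of the 9 pooled or single lists present, and 3 lists coincided over 237 bp.

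The place with all 3 factors spanned 96156597 to 96157310, 107 kb from the Hoxb13 end. A Menin peak of 513 bp, an MLL1 peak of 296 bp and a Wdr5 peak of 631 bp overlapped there, and MLL3 covered only 64 bp of the 714 bp. None of these peaks was met by a peak of a replicate list. The other MLL1 peak, 597 bp from 96214580 to 96215176, lay inside the widest Wdr5 peak of the cluster (96213888 to 96215200, 1313 bp). It held no Menin peak, and the nearest MLL3 peak lay 90 bp away.

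The widest Menin peak, 1439 bp from 96171817 to 96173255, was the one place with support from replicate lists. Menin replicate 1 had a peak there of 630 bp and replicate 2 one of 862 bp. A Wdr5 peak lay inside it, and MLL3 covered 11.9% of it. The next Menin peak, 1273 bp from 96203005 to 96204277, also contained a Wdr5 peak, without MLL3 or replicate support. Another, 661 bp from 96085859 to 96086519, lay toward Hoxb13 and was 22.7% covered by MLL3. The 4 Wdr5 peaks nearest to the Hoxb13 end (from 14.2 to 43.5 kb) met neither Menin nor MLL1, and one of them met MLL3. The next widest Wdr5 peaks were 777 bp from 96064234 to 96065010, with no other factor, and 729 bp from 96160233 to 96160961, with MLL3.

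Counts of shared peaks were read against the same share of each whole list. Wdr5 lay at 3 of 6 Menin peaks (24.1% of all Menin peaks), MLL1 at 1 of 6 (8.12%) and MLL3 at 3 of 6 (28.9%). Of the 14 Wdr5 peaks, 3 met Menin (29.2% over the list), 2 met MLL1 (8.56%) and 6 met MLL3 (22.0%). Both MLL1 peaks met Wdr5 (59.1% over the list), 1 met Menin (74.0%) and 0 met MLL3 (17.0%). With so few peaks the exact 95% binomial intervals were wide, for example 11.8 to 88.2% for Wdr5 at Menin and 17.7 to 71.1% for MLL3 at Wdr5 peaks, and both contain the share of the whole list.

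Replicate lists, which hold 126 to 23164 peaks each, had almost nothing in the cluster. Of 14, 12 had 0 peaks there, namely all 3 of ING1 in myotubes, both of ING1 in myoblasts, both of Sin3A, both of MLL1 and all 3 of Wdr5. The share of empty genome windows was not computed for replicate lists, so these counts do not set Hoxb apart. The shortest lists, with 126, 428, 430 and 466 peaks, must leave most of the 13887 windows empty. Menin covered 1087 bp with 2 peaks in replicate 1 and 862 bp with 1 peak in replicate 2. Pooled peaks were met by a replicate peak in 1 of 6 cases for Menin (28.9% over the list), 0 of 14 for Wdr5 (16.8%) and 0 of 2 for MLL1 (40.5%). In reverse, 1 of 2 replicate 1 Menin peaks met the pooled Menin list (92.3% over replicate 1) and so did the 1 of replicate 2 (96.0% over replicate 2). The replicate 1 peak that did not, 457 bp from 96181081 to 96181537, met no other list. LSD1 had 1 list in each state and MLL3 1 in myoblasts, so neither had a replicate check.

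Neither factor mapped in both states was listed in the cluster in myotubes or in myoblasts. ING1 covered 0 bp in each of its 3 myotube and 2 myoblast replicate lists, and the pooled lists had 0 peaks too. The difference of 0 bp has no spread to be tested against (exact permutation test, two-sided, p = 1), and 3 lists against 2 cannot give a p below 0.2. The myotube and myoblast lists of LSD1 both had 0 peaks. For each pooled or single list taken alone an empty window is common: 68.6% of windows had no pooled ING1 peak in myotubes and 70.6% none in myoblasts. LSD1 was absent from 70.6% of windows in myotubes and 80.8% in myoblasts, and Sin3A from 58.5%.

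All 5 pooled or single lists of ING1, LSD1 and Sin3A together were empty in 51.7% of all windows, so their absence from Hoxb alone does not set it apart. Of the 84 windows with at least the MLL3 coverage of Hoxb, 6 (7.14%) were empty of all 5. The 2 shares were not tested against each other, since windows are not replicates and the comparison was chosen after the values were seen.

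The other Hox clusters were the nearest comparison. Their mm9 windows were set from the known places of the clusters and not checked against an annotation: Hoxa on chromosome 6 from 52090000 to 52225000, Hoxc on chromosome 15 from 102740000 to 102880000 and Hoxd on chromosome 2 from 74495000 to 74610000. Hoxb had 78 MLL3 peaks among the 100 peaks of the pooled and single lists. Hoxa had 17 of 98, Hoxc 27 of 158 and Hoxd 38 of 41. Over the genome MLL3 also has the most peaks of the pooled and single lists, 218204 against 70050 for Menin, the next longest. MLL3 covered 38.6% of Hoxb, 9.61% of Hoxa, 26.3% of Hoxc and 24.4% of Hoxd. With 1 MLL3 list these 4 values have no spread between replicates. The clusters also lie on chromosomes with unlike MLL3 levels. Windows at or above the Hoxb value numbered 12 on chromosome 11, 1 on chromosome 6, 34 on chromosome 15 and 5 on chromosome 2. The part of the chromosome in the 4 values was not tested. All 9 lists had peaks in Hoxa and in Hoxc, against 4 lists in Hoxb and 3 in Hoxd.

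Menin, MLL1 and Wdr5 covered Hoxc most, then Hoxa, with Hoxb far below both and Hoxd lowest. Menin covered 2.77% of Hoxb in the pooled list, against 40.4% of Hoxa, 56.3% of Hoxc and 0 of Hoxd. MLL1 covered 0.483% of Hoxb, 26.6% of Hoxa, 37.6% of Hoxc and 0 of Hoxd. Wdr5 covered 4.74% of Hoxb, 27.1% of Hoxa, 39.6% of Hoxc and 0.868% of Hoxd. ING1, LSD1 and Sin3A, absent from Hoxb, each covered between 0.813% and 13.1% of Hoxa and Hoxc in every pooled or single list. In Hoxd, Sin3A had 1 peak and the others 0.

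**Figure D4:**
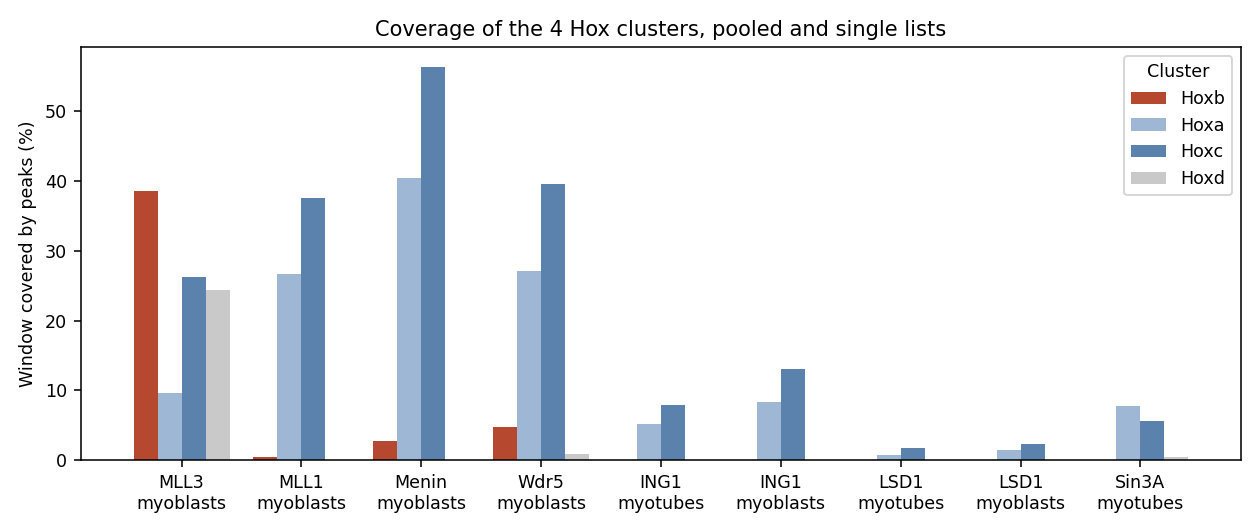
Percentage of each cluster's window covered by peaks (vertical) for the 9 pooled or single lists (horizontal). For MLL3 the bar of Hoxb (38.6%) is the tallest of the 4 clusters, and for MLL1, Menin and Wdr5 the bars of Hoxa and Hoxc are above those of Hoxb.

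In the replicate lists of these 3 factors Hoxb also lay below Hoxa and Hoxc. Menin covered 0.588% and 0.466% of Hoxb, against 35.5% and 33.8% of Hoxa and 47.2% and 44.2% of Hoxc, so both Hoxb values lay far below the others. MLL1 covered 0 of Hoxb in both lists, against 22.6% and 11.7% of Hoxa and 31.1% and 11.0% of Hoxc. Wdr5 covered 0 of Hoxb in its 3 lists, against 11.5%, 5.42% and 5.06% of Hoxa (7.32% ± 3.60, SD, n = 3) and 13.7%, 5.58% and 3.98% of Hoxc (7.74% ± 5.20, SD, n = 3). The Menin lists are also the longest of the replicate lists, and the part of list length in these values was not tested. ING1 in myotubes had the smallest differences, with 0 of Hoxb, 0.0748% ± 0.130 of Hoxa and 0.565% ± 0.573 of Hoxc (SD, n = 3).

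Hoxb was below Hoxa in 6 of the 6 replicated groups, with a mean difference of −10.4 percentage points (SD 13.2 over groups). It was below Hoxc in 6 of 6, with a mean difference of −13.35 points (SD 17.3). Over the 6 group means the exact sign-flip permutation test, two-sided, gave p = 0.0312 for both, the smallest that 6 groups allow, and 0.0469 after Benjamini-Hochberg adjustment over 3 comparisons. The units of this test are groups of different factors, not cultures, and ING1 enters with both of its states. Hoxb coverage was 0 in every group but Menin, so in those groups no difference above 0 was possible. Any listed peak in the other cluster then made a group count as lower in Hoxb. The clusters were also chosen with earlier results of these data known, so the p adds little to the values themselves. The Hoxa coverage of Sin3A and of ING1 in each state came from 1 replicate list each. For ING1 in myotubes it was 1 peak of 303 bp. The Hoxc coverage of Sin3A also came from 1 list. With the 2 ING1 states averaged into 1 value, an alternative chosen after seeing the data, neither call held. Hoxb was then lower in 5 of 5 factors, with mean differences of −12.3 points against Hoxa and −15.6 points against Hoxc (exact permutation, adjusted p = 0.0938 for both). With 5 factors the smallest exact permutation p is 0.0625, so that number of factors cannot reach the threshold of 0.05. Both calls were also lost without replicate 1 of every group (exact permutation, adjusted p = 0.188) and without replicate 2 (exact permutation, adjusted p = 0.0938), and with the wider 50% of each list (exact permutation, adjusted p = 0.0938). Over these 3 alternatives the differences lay between −9.01 and −15.2 points. With the authors' pooled lists they were larger, −17.9 points against Hoxa and −25.4 against Hoxc (exact permutation, adjusted p = 0.0469 for both). Hoxb minus Hoxd was 0.0878 points (exact permutation, adjusted p = 1). Menin was the 1 group with any coverage in either cluster.

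**Figure D5:**
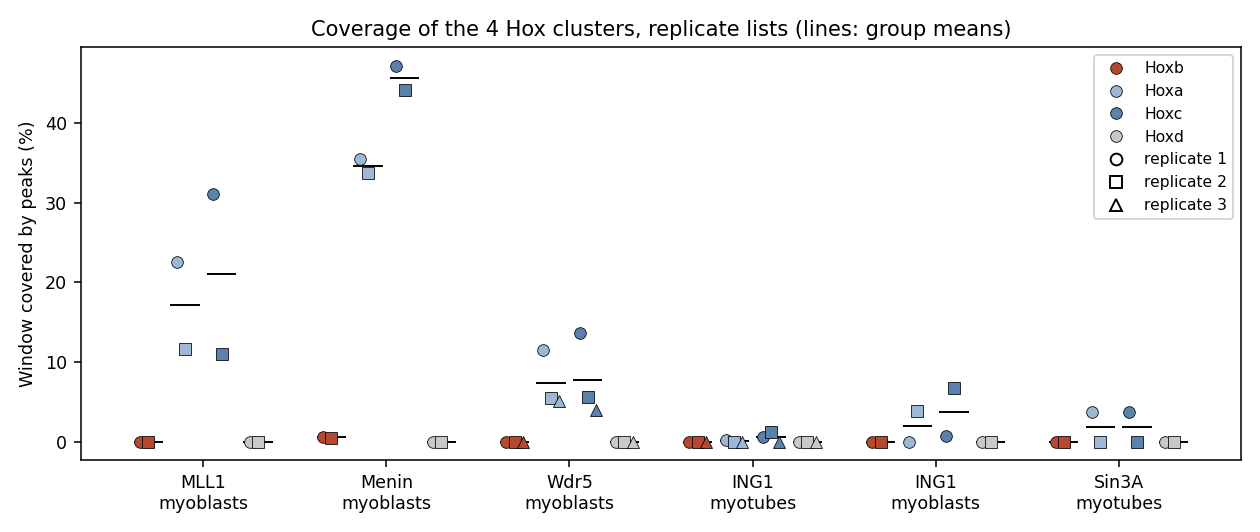
Percentage of each cluster's window covered by peaks (vertical) in the 14 replicate lists, by group (horizontal). Symbols are replicate lists, colours are clusters and lines are group means. In Hoxb the symbols lie at 0 except for Menin at 0.588% and 0.466%.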

How the data were processed

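The deposited files hold peak boundaries, per the file headers: chromosome, left end and right end in bp, with no height, fold or significance per peak. The submitters' processing notes name Bowtie 0.12.9, SAMtools 0.1.19, bedtools 2.17.0 and the builds mm9 and NCBIM37. What each tool did, which program and threshold gave the peaks, and how replicates were pooled is not given in the sources used here. Without read numbers the sequencing depth is unknown, and a deeper library can give a longer list.

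Peaks on chromosomes 1 to 19 and X were used. Starts were taken as 0-based and are printed 1-based. Coverage is the bp of a window that lies under peaks of a list, cut at the window's ends. Lists were compared by overlaps of at least 1 bp, with exact (Clopper-Pearson) 95% intervals. Genome windows were tiled from the first to the last peak of each chromosome. Exact permutation tests compared ING1 between states over all 10 arrangements of its lists, and Hoxb with the other clusters over 6 group means. Regions named were the 3 widest peaks of each list in the window and places shared by factors. The rule also asked for stretches with at least 5 lists, of which there were none. The place with 3 lists, the MLL3 gaps and the Wdr5 peaks nearest to Hoxb13 were picked after their values were seen. The window, its members and the compared clusters were chosen with earlier results of these data known. Interval arithmetic and tests were tested on simulated data. Python 3.11.15, numpy 2.4.6, pandas 2.3.3 and scipy 1.17.1 were used. Alternatives were other overlap rules, the wider 50% of each list, unions of replicate lists, omission of replicates, covered bp, peak number, a replicate block and, added after seeing the data, shortened MLL3 lists and ING1 states averaged into 1 value.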

Additional observations from a re-analysis of the deposited data

How the results depend on the processing

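Shortening the MLL3 list, by rules chosen after seeing the data except for the wider 50%, lowered its coverage of Hoxb. Each setting kept the widest MLL3 peaks, at the Menin length those of 791 bp and more. MLL3 covered 56715 bp with the wider 50% of its list and 49773 bp with as many peaks as Menin. It covered 48956 bp with as many as Wdr5, 23223 bp with as many as Sin3A and 12945 bp with as many as MLL1. Menin itself covered 5120 bp, Wdr5 8765, Sin3A 0 and MLL1 893. Windows at or above Hoxb made up 0.936%, 1.00%, 0.936%, 1.74% and 3.27% of all windows in these 5 settings. At the Menin length MLL3 covered 26.9% of Hoxb, 5.18% of Hoxa, 23.4% of Hoxc and 12.1% of Hoxd.

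The sparse peaks of the other factors depended on the pooled lists. With the wider 50%, Menin covered 3373 bp, Wdr5 4781 bp and MLL1 597 bp. With unions of replicate lists Menin covered 1319 bp, and Wdr5 and MLL1 covered 0. Unions with a replicate left out gave 862 to 1087 bp for Menin and 0 for Wdr5 and MLL1. The shares of peaks meeting another list followed: with unions of replicate lists, and with any replicate left out of them, Menin at MLL1, at Wdr5 and at MLL3, and MLL3 at Menin and at Wdr5, were 0. With the wider 50% of each list, MLL1 at Menin, Menin at MLL1 and MLL3, and MLL3 at Menin were 0. Within 500 bp, MLL1 at MLL3 was 100%. The other 34 shares computed lay inside the exact interval of the reported one. Unions left no Wdr5 or MLL1 peak in the window, so their own shares could not be computed.

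For Hoxb minus Hoxa the difference was −9.55 points with the wider 50% (exact permutation, adjusted p = 0.0938) and −9.01 to −11.6 points without replicates 1 to 3. For Hoxb minus Hoxc it was −12.3 (exact permutation, adjusted p = 0.0938) and −11.1 to −15.2. Both calls were lost with the wider 50%, where the cause was not tested, and without replicate 1 or 2. Without replicate 1, Sin3A covered 0 of Hoxa and of Hoxc, and ING1 in myotubes covered 0 of Hoxa. Without replicate 2, ING1 in myoblasts covered 0 of Hoxa. A group with 0 in both clusters raises the smallest possible p, but Hoxc had none without replicate 2. Both calls were also lost over 5 factors, with the ING1 states averaged (−12.3 points for Hoxa and −15.6 for Hoxc, exact permutation, adjusted p = 0.0938). The smallest unadjusted exact permutation p is then 0.0625. They held with pooled lists, where the differences were larger (−17.9 and −25.4 points), in covered bp and without replicate 3. They also passed with 14 lists as units (−9.45 and −12.0 points). Lists of the same factor are not independent, so that setting counts too many units and adds no support. For ING1 the difference stayed at 0 bp in all 9 alternatives, the replicate block over 2 same-numbered pairs included (difference 0 bp, exact permutation p = 1). Whether the numbers pair the cultures could not be checked, since every value is 0. Depth limits these lists: binding too weak to be listed cannot be told apart from none.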

Other observations

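The 6 windows that had at least the MLL3 coverage of Hoxb and no ING1, LSD1 or Sin3A peak lay on chromosome 15 (4 windows), chromosome 2 and chromosome 4. Their MLL3 coverage ran from 41.4% to 56.0%. MLL1 covered 0 of each, Menin at most 0.259% and Wdr5 between 0.774% and 4.63%, against 0.483%, 2.77% and 4.74% in Hoxb. On chromosome 15 they started at 74166126, 83786178, 84156180 and 101546274, on chromosome 2 at 164910927 and on chromosome 4 at 107172141. They were picked after their values were seen.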
